A study of Mus musculus with 7 samples.

Results

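Atrx, Nbeal1, Cnot6l, Rreb1, Ccdc88a, Spata7, Upf2 and Zmym5 are mouse genes whose bodies held many peaks of RNA recovered with probes for lnc-31, a long noncoding RNA, and no peak of RNA recovered with probes against the bacterial lacZ sequence. They are 8 of 245 RefSeq genes whose body overlapped at least 1 lnc-31 probe peak by 1 base or more, and 199 of those 245 overlapped no lacZ peak. The members were chosen by these peak counts, so the counts are given as a description and without a test. Both experiments used C2C12 cells, the mouse muscle precursor line that divides as myoblasts and forms myotubes on serum withdrawal. The pull-down had 1 library with biotinylated antisense probes for lnc-31, 1 library with aspecific lacZ probes and 1 input, not used here. The knockdown had 2 libraries of proliferating cells with siRNA against lnc-31 and 2 with scrambled siRNA. All are from 1 cell line. Nothing in the labels states that the 2 libraries of a condition are separate cultures, and their spread, which sets the p-values, may be technical.

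lnc-31 is a long noncoding RNA from the locus of the microRNA miR-31, and the title of the series concerns its part in the translation of Rock1 mRNA. Antisense pull-down recovers the targeted RNA together with RNAs held to it in the lysate. An unrelated probe set gives the background of RNAs that stick to beads or to probes whatever their sequence. It cannot show RNAs that the lnc-31 probes themselves bind. The 8 genes have no shared family. Upf2 and Cnot6l encode parts of cytoplasmic mRNA decay, Atrx, Rreb1 and Zmym5 encode nuclear proteins, and Ccdc88a, Nbeal1 and Spata7 encode proteins of the cytoskeleton, of membrane traffic and of the cilium.

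The peak lists held 596 peaks over 203 kb with lnc-31 probes and 476 peaks over 126 kb with lacZ probes, in multiples of 200 bases, and the number of reads behind them is unknown. Knockdown values are FPKM (fragments scaled to transcript length and library size) for 13376 rows, of which 11500 had a mean of 1 FPKM or more and were tested. Depth is unknown here too, so precision comes only from the spread between libraries. Of 7 myoblast markers, 5 had a row, and their FPKM summed to 429 to 440.1 with lnc-31 siRNA and to 360.2 to 364 with scrambled siRNA. Limma called 4 of these 5 higher (Myod1, Des, Cdh15 and Chrna1). Pax7 and Msc had no row, nor had any of 3 epithelial, 3 endothelial and 3 adipocyte markers. Of 4 neural markers, Tubb3 and Map2 had one and summed to 24.3 to 25.2 FPKM with lnc-31 siRNA and 27.7 to 28.6 with scrambled siRNA, and of 3 blood markers Cd68 had one, at 1.14 to 1.27 FPKM with lnc-31 siRNA and 1.49 to 1.65 with scrambled siRNA. None of these 3 was called. The part of these cell types in the results was not tested. The row that names Mir31 was at 12.1 and 14.1 FPKM with lnc-31 siRNA and at 13.4 and 15.6 with scrambled siRNA, which overlap (log2 fold change -0.14, limma adjusted p = 0.38). This row did not show a fall of the targeted RNA, so each direction below is that of the libraries labelled lnc-31 siRNA. In the pull-down, the RefSeq gene that spans Mir31, Gm49890, held 11 lnc-31 probe peaks and 6 lacZ peaks.

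The 8 genes held 110 of the 596 lnc-31 probe peaks (18.5%) and 40.8 kb of the covered sequence (20.1%). Atrx had 30 peaks, Nbeal1 24, Cnot6l 13, Rreb1 10 and Ccdc88a 9, and Spata7, Upf2 and Zmym5 had 8 each. Most genes with any lnc-31 probe peak had 1 (148 of 245). Of 2850 protein-coding genes with a body between 24.5 and 174 kb and a mean between 3.52 and 29.8 FPKM, the limits that the 8 genes span, 2756 (96.7%) held no lnc-31 probe peak. All 8 bodies were longer than the median of 21.9 kb over the genes of the FPKM table. The part of length and RNA level in the number of peaks was not tested. At the edge of the choice, Zwint had 7 peaks without a lacZ peak, and Spryd7, Fhl2 and Taf3 had 6 each. Genes with at least 8 peaks and no lacZ peak that are not described here were Cenpe with 26, Rock1 with 10 and a pair with 13 and 12. Aspm had 15 peaks but also 1 lacZ peak. Rock1, the gene in the title, lay among the 8 genes in its number of peaks, and its 10 peaks covered 2000 bases, as did those of Ccdc88a and Upf2. Rock1 RNA was at 17.8 and 17.6 FPKM with lnc-31 siRNA and at 16.6 and 17.1 FPKM with scrambled siRNA, a log2 fold change of 0.07 that did not pass (limma, adjusted p = 0.38).

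**Figure D1:**
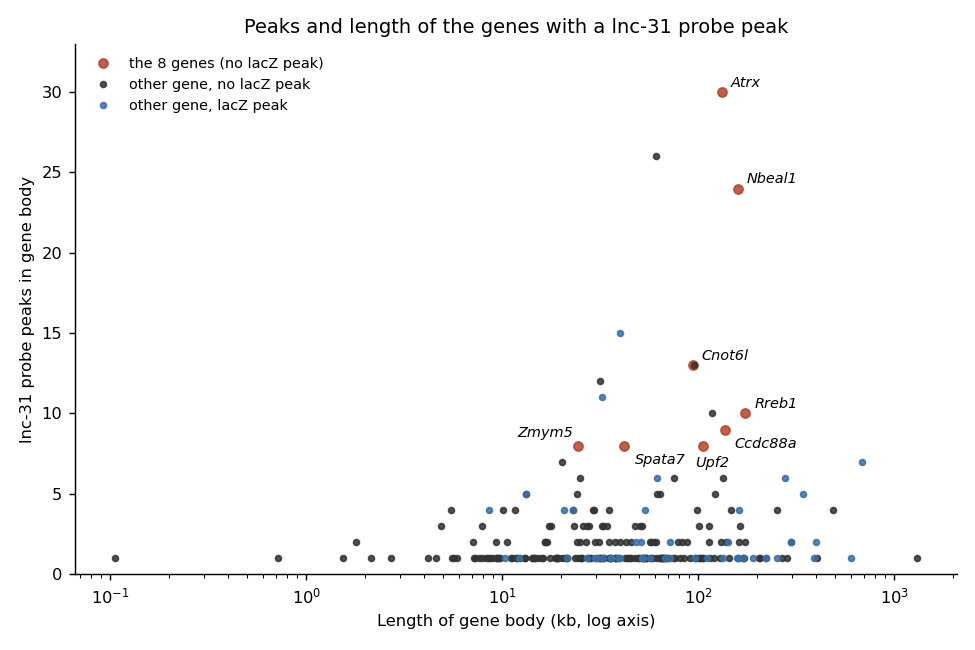
Number of lnc-31 probe peaks (vertical axis) against the length of the gene body in kb (horizontal log axis) for the 245 RefSeq genes with a peak. Red points are the 8 genes, black points other genes without a lacZ peak and blue points genes with one. Atrx and Nbeal1 stand at 30 and 24 peaks, and 148 genes lie at 1.

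Zmym5, the shortest body (24.47 kb), held 32.7 peaks per 100 kb, Atrx 22.8, Spata7 19.2, Nbeal1 15.0 and Cnot6l 13.8. Upf2 (7.60), Ccdc88a (6.55) and Rreb1 (5.76) were less dense than these 5. A minimum number of peaks was part of the choice, so a short body among the 8 has a high density by construction. The order also depends on counting close peaks separately: with peaks within 1 kb of each other counted as 1, Zmym5 had 4, Atrx 22 and Spata7 7. Peaks covered 18.8% of the Zmym5 body, 8.50% of Atrx and 6.82% of Cnot6l, against 1.46% of Ccdc88a. In RNA level, Atrx, with the most peaks, had the highest FPKM of the 8, and Nbeal1, with 24 peaks, the lowest, at the 15.6th percentile of the tested rows.

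The peaks were not spread evenly along the genes. Across the 8 genes, 34 of the 110 peaks (30.9%) had their centre in the last 10 kb of the gene body, and these held 51.0% of the covered bases. The 8 bodies summed to 868 kb. In 150 other genes with lnc-31 probe peaks, no lacZ peak and a known strand, the shares were 54.7% of peaks and 61.6% of bases. In the 106 of them with a body over 20 kb, they were 47.1% and 56.0%. A stretch of 10 kb is a larger part of a shorter body, and lengths were not matched, so these shares cannot be ranked against those of the 8 genes. Peaks wider than 1 window of 200 bases made up 64.7% of the peaks in the last 10 kb (22 of 34), and 14.5% of those before it (11 of 76). Mean widths were 612 bases in the last 10 kb and 263 bases before it. Among the 150 other genes, 38.0% of peaks in the last 10 kb and 26.7% of those before it were wider than 200 bases, with mean widths of 382 and 287 bases. The 106 longer ones gave 39.0% and 27.1%. These shares come from 1 library and have no test, and neighbouring peaks of a gene are not independent. Gene bodies were taken from RefSeq without their exons, so exonic and intronic peaks were not separated.

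**Figure D2:**
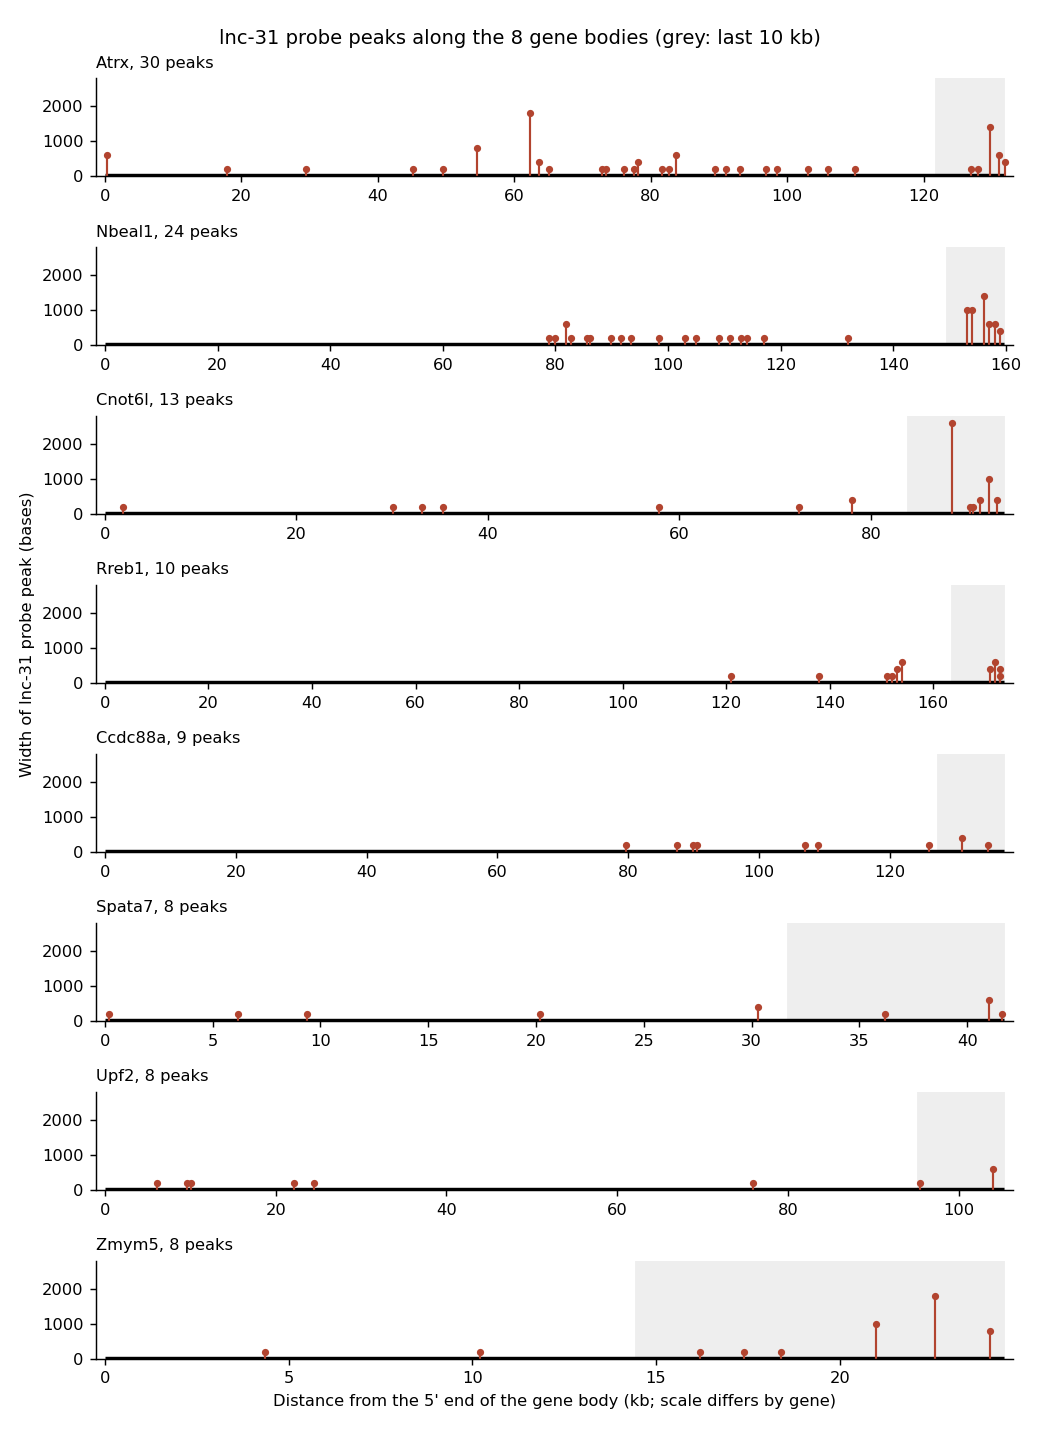
Position of each lnc-31 probe peak along the 8 gene bodies. The horizontal axis is the distance in kb from the 5′ end of the body (its scale differs between genes), the height is the width of the peak in bases, and the grey band is the last 10 kb. The widest peaks of Nbeal1, Cnot6l and Zmym5 lie in the grey band, and the first 49.4% of Nbeal1 holds no peak.

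Upf2 (chromosome 2, 5951447 to 6056703, plus strand, GRCm38.p6, which has the coordinates of mm10) encodes the adaptor that joins the helicase UPF1 to UPF3 in nonsense-mediated decay, the pathway that removes mRNAs with early stop codons. Of its 8 peaks, 5 lay between 6.05 and 24.5 kb from the 5′ end, and a gap of 51.2 kb followed. The other 3 stood at 75.9, 95.5 and 104 kb, and the last was the only one over 200 bases (600 bases, close to the 3′ end). Upf2 RNA was at 12.1 FPKM in both lnc-31 siRNA libraries and at 9.71 and 10.8 FPKM with scrambled siRNA. Both lnc-31 siRNA libraries were above both scrambled ones, and the log2 fold change was 0.22 (SE 0.065). It did not pass the test over all rows (limma, adjusted p = 0.084), although median of ratios scaling called it (adjusted p = 0.0497). In bulk RNA, fewer cells that express a gene and less RNA per cell cannot be told apart, here and below.

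The helicase gene Upf1 was at 19.6 and 19.2 FPKM with lnc-31 siRNA and at 18.5 and 17.6 with scrambled siRNA (adjusted p = 0.26). Upf3a and Upf3b had log2 fold changes of -0.05 and 0.07 (adjusted p = 0.62 and 0.46). Of 22 tested genes of nonsense-mediated decay and the exon junction complex, 2 rose and 2 fell (18.2%), against 12.4% of all rows called by limma, with a median of 0.00 on the log2 scale. The kinase gene Smg1, which phosphorylates UPF1, was at 11.8 and 11.9 FPKM with lnc-31 siRNA and at 15.1 and 15.6 with scrambled siRNA (log2 fold change -0.34, adjusted p = 0.016). Smg1 was also the only gene of this list besides Upf2 with lnc-31 probe peaks (3, none with lacZ). The endonuclease gene Smg6 rose by 0.37 on the log2 scale (adjusted p = 0.019) and the helicase gene Dhx34 by 0.31 (0.039), and the release factor gene Etf1 fell by 0.19 (0.044). Without any 1 of the 4 libraries the calls of Smg1, Dhx34 and Etf1 were lost, and that of Smg6 without either scrambled library or lnc-31 siRNA 1. A constant prior variance also ended the call of Etf1 (adjusted p = 0.086).

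Cnot6l (chromosome 5, 96070333 to 96164198, minus strand) encodes a catalytic subunit of the CCR4-NOT complex, which shortens poly(A) tails and starts the decay of mRNAs. Its 13 peaks covered 6400 bases, and 6 of them, with 75.0% of these bases, lay in the last 10 kb. One of these was 2600 bases wide, centred 5.37 kb from the 3′ end. The other 7 peaks were 200 bases wide except for 1 of 400. The first lay near the 5′ end of the gene, where it also overlapped the predicted gene Gm52799. Without strand, the signals of Cnot6l and Gm52799 cannot be told apart in that peak. Cnot6l RNA was at 22.9 and 20.6 FPKM with lnc-31 siRNA and at 20.5 and 23.2 FPKM with scrambled siRNA. The groups overlapped, and the difference was -0.01 on the log2 scale, with a 95% interval of -0.21 to 0.19 (limma, adjusted p = 0.95).

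The close relative Cnot6, the alternative subunit of the same complex, was higher than Cnot6l on the FPKM scale, at 67.2 and 67.1 FPKM with lnc-31 siRNA and at 68.4 and 67.7 with scrambled siRNA, and did not pass the test (adjusted p = 0.78). Of 35 tested genes of deadenylation and decay, 4 rose and 3 fell (7 called), against 5.64% of all rows called higher and 6.78% called lower, with a median of -0.02 on the log2 scale. The subunit gene Rqcd1, now named Cnot9, was at 23.8 and 25.6 FPKM with lnc-31 siRNA and at 45.4 and 44.6 with scrambled siRNA (log2 fold change -0.84, adjusted p = 0.0036). Btg2, which recruits the deadenylase to mRNAs, rose (0.47, adjusted p = 0.013). The RNA-binding protein gene Zfp36l2 fell (-0.47, 0.0080). The merged row of Edc4, a decapping scaffold, and Nrn1l fell as well (-0.56, 0.0056). The calls of Rqcd1, Zfp36l2 and Edc4 held without each library in turn, and that of Btg2 was lost without either scrambled library (adjusted p = 0.068 in both). Cnot6l was the only gene of this list with a lnc-31 probe peak.

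Atrx (chromosome X, 105797615 to 105929372, minus strand) encodes a chromatin remodeller of the SNF2 family that, with DAXX, places the histone variant H3.3 at heterochromatin and telomeres. Its 30 peaks were the most of any gene. They ran along the whole body, with the first 0.272 kb from the 5′ end, the last 0.185 kb from the 3′ end and a largest gap of 17.2 kb. Of these, 21 were 200 bases wide and the widest measured 1800 bases, 62.3 kb from the 5′ end. The value in column 7 of the deposited lists, read here as the authors' p for a peak from its range alone, was 2.05e-07 at its lowest in Atrx, the lowest of all 596 peaks, and had a median of 2.83e-05. In the other peaks of the lnc-31 probe list, outside the 8 genes, the median was 7.51e-04, and in the lacZ list it was 0.00104. The medians of Cnot6l (0.00124), Upf2 (0.00219) and Ccdc88a (0.00520) were weaker than that of the lacZ list. Those of Nbeal1 (5.91e-05), Spata7 (9.88e-05), Zmym5 (1.03e-04) and Rreb1 (4.03e-04) were below both medians, as was that of Atrx. Of the Atrx peaks, 3 also overlapped the predicted gene Gm14853, and without strand the signals of both genes cannot be told apart.

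Atrx and Cnot6l were the members with a lnc-31 probe peak that overlapped a promoter window, the stretch from 250 bases before to 50 bases after an annotated start. Over all 32851 RefSeq windows, 20 (0.0609%) overlapped such a peak, and 2 of the 14 windows of the 8 genes did. The 8 genes were chosen for their many peaks, so a larger share among their windows follows from the choice. Both sequences are shown to place these peaks against the start (RefSeq, GRCm38.p6, 5′ to 3′ on the minus strand, at chrX:105929323-105929622 for Atrx and chr5:96161941-96162240 for Cnot6l). Capitals mark the bases under the peak.
Atrx: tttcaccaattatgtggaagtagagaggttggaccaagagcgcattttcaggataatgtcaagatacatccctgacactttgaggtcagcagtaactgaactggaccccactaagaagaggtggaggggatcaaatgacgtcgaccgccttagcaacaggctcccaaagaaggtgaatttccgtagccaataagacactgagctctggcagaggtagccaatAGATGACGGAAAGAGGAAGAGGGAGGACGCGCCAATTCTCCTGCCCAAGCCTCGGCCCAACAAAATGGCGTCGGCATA
Cnot6l: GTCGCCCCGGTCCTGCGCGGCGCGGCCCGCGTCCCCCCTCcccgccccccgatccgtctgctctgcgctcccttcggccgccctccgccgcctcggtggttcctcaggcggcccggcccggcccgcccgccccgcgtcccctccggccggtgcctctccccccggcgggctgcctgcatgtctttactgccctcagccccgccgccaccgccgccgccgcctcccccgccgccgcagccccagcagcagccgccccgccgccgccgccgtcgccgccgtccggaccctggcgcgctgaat
In Atrx the capitals cover the 50 bases after the start and 28 bases before it, a stretch inside a peak 600 bases wide. In Cnot6l they are the 40 bases at the far upstream end of the window, and the gene body as annotated extends further in that direction. The Cnot6l peak lay upstream of the starts of all 3 windows of the gene, and it also overlapped Gm52799. The Cnot6l window was 82.7% G or C with 49 CG pairs and the Atrx window 50.3% with 11, against medians of 52.7% and 7 over all windows.

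**Figure D3:**
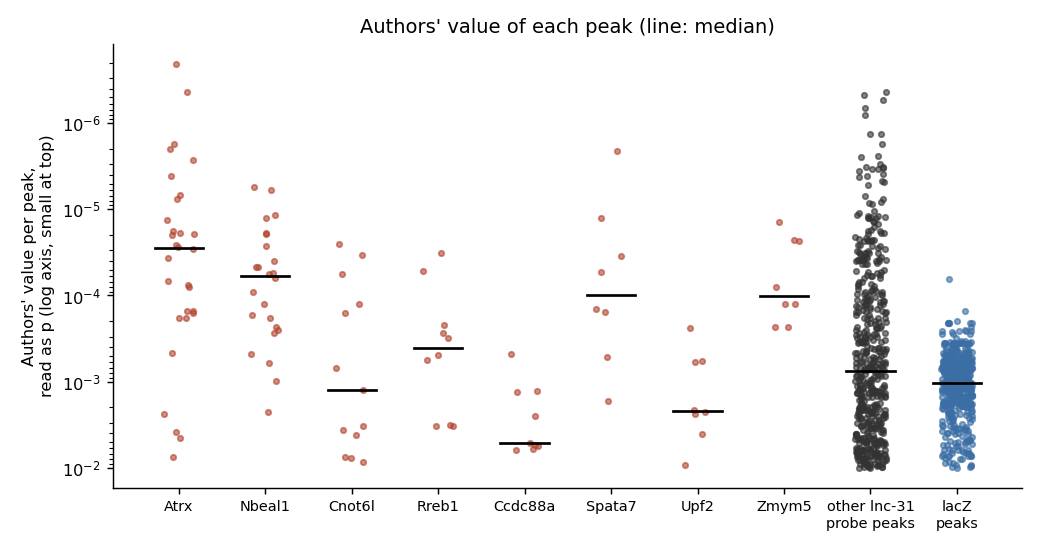
Value of column 7 for each peak, read as the authors' p (log axis, smallest at the top), for the 8 genes, for all other lnc-31 probe peaks and for the lacZ peaks. Lines are medians. Atrx reaches 2.05e-07 and the lacZ peaks reach 6.52e-05.

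Atrx RNA was at 29.6 and 28.6 FPKM with lnc-31 siRNA and at 29.7 and 31.4 FPKM with scrambled siRNA. The groups did not overlap but lay next to each other, and the log2 fold change of -0.07 did not pass (SE 0.049, limma adjusted p = 0.40). Its partner gene Daxx was at 8.05 and 9.18 FPKM with lnc-31 siRNA and at 10.8 and 10.2 with scrambled siRNA (log2 fold change -0.26, adjusted p = 0.081). Of 23 tested genes of H3.3 deposition and heterochromatin, none rose and 5 fell, against 5.64% of all rows called higher and 6.78% called lower, with a median of -0.12 on the log2 scale. The histone methyltransferase gene Suv39h1 was at 25.4 and 25.7 FPKM with lnc-31 siRNA and at a mean of 32.2 ± 0.272 with scrambled siRNA (SD, n = 2, log2 fold change -0.32, limma adjusted p = 0.013). The chromatin protein gene Dek fell by 0.28 on the log2 scale (adjusted p = 0.020), the HIRA partner gene Ubn1 by 0.32 (0.024), and the nuclear body gene Pml by 0.25 (0.039). Cbx5, which encodes heterochromatin protein HP1 alpha, was the remaining gene called (-0.18, adjusted p = 0.039). All 5 calls were lost without any 1 of the 4 libraries. A constant prior variance ended those of Cbx5 (adjusted p = 0.081) and Pml (0.065).

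Rreb1 (chromosome 13, 37778382 to 37952005, plus strand) encodes a zinc finger transcription factor that acts downstream of RAS. Its first peak stood 121 kb from the 5′ end, so that 69.9% of the body before it was empty. All 4 promoter windows of the gene lay inside this stretch, between 37825788 and 37888920. Part of the empty stretch is therefore upstream of every start in these windows. The 10 peaks fell into a group of 4 between 19.7 and 22.3 kb from the 3′ end, another of 4 in the last 2.20 kb, and 2 single peaks further upstream. Rreb1 RNA was at 9.39 and 8.61 FPKM with lnc-31 siRNA and at 8.44 and 7.85 FPKM with scrambled siRNA. The groups did not overlap, and the log2 fold change of 0.13 did not pass (SE 0.069, limma adjusted p = 0.27). Of 28 tested genes of RAS and MAPK signalling, 3 rose and 2 fell (17.9%), against 12.4% of all rows called, with a median of -0.02. The GTPase gene Nras was at 27.2 and 27.6 FPKM with lnc-31 siRNA and at 34.9 and 35.0 with scrambled siRNA (log2 fold change -0.34, adjusted p = 0.010). Dusp6 and Spry2, which encode feedback inhibitors of the pathway, had log2 fold changes of 0.34 (adjusted p = 0.013) and 0.31 (0.017). The GTPase gene Rras also rose (0.23, adjusted p = 0.043). The calls of Dusp6, Spry2 and Rras were lost without any 1 library, and that of Nras without either scrambled library. A constant prior variance (adjusted p = 0.064) and no filter on low values (0.052) also ended the call of Rras. None of the 27 other tested genes of this list held a lnc-31 probe peak.

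Zmym5 (chromosome 14, 56790585 to 56815051, minus strand) encodes a protein with MYM-type zinc fingers. Of its 8 peaks, 6 lay in the last 10 kb with 91.3% of the covered bases, and the 3 closest to the 3′ end were 1000, 1800 and 800 bases wide. The peak of 1800 bases also overlapped the predicted gene Gm4037, and without strand their signals cannot be told apart. All 8 peaks had a column 7 value at or below 0.001. Zmym5 RNA was at 9.73 and 9.70 FPKM with lnc-31 siRNA and at 9.87 and 10.1 FPKM with scrambled siRNA. The groups did not overlap, yet the log2 fold change was -0.04, with a 95% interval of -0.17 to 0.09 (limma, adjusted p = 0.66). Of its relatives, Zmym2 rose, at 13.9 and 13.6 FPKM with lnc-31 siRNA and 11.6 and 11.4 with scrambled siRNA (log2 fold change 0.24, adjusted p = 0.039), a call lost without any 1 library and with a constant prior variance (adjusted p = 0.051). Zmym1, Zmym3 and Zmym4 had log2 fold changes of -0.14, -0.08 and -0.04 and did not pass (adjusted p = 0.40, 0.44 and 0.75), and Zmym6 was below 1 FPKM and not tested. Of 17 tested MYM and LSD1-CoREST genes 3 rose and none fell (17.6%), against 12.4% of all rows called, with a median of 0.01. The others that rose were Rcor1, the CoREST scaffold (0.46, adjusted p = 0.0080), and Phf21a, a histone reader of that complex (0.55, 0.025). The call of Rcor1 held without each library in turn, and that of Phf21a was lost without either lnc-31 siRNA library or scrambled siRNA 1.

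Ccdc88a (chromosome 11, 29373405 to 29510808, plus strand) encodes girdin, which binds actin and G protein alpha subunits and is a substrate of AKT. Its 9 peaks all lay in the second part of the gene, the first 79.7 kb from the 5′ end, and 8 were 200 bases wide. Their column 7 values were the weakest of the 8 genes, with a median of 0.00520, and 1 peak was at or below 0.001. Ccdc88a RNA was at 13.5 and 14.3 FPKM with lnc-31 siRNA and at 17.6 and 17.9 FPKM with scrambled siRNA. Both lnc-31 siRNA libraries were below both scrambled ones, and the log2 fold change was -0.33 (SE 0.051, limma adjusted p = 0.018). It was the only one of the 8 genes called, 1 of 8 against 12.4% of all 11500 rows, and 8.90% of all rows had a larger difference in either direction. With 1 library left out the fall was between -0.37 and -0.30 and the call was lost, at adjusted p = 0.074 and 0.052 without lnc-31 siRNA 1 or 2, and 0.083 and 0.089 without scrambled siRNA 1 or 2.

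The relative Ccdc88c went the other way, at 2.92 and 2.73 FPKM with lnc-31 siRNA and at 2.01 and 2.35 with scrambled siRNA, a log2 fold change of 0.27 that did not pass (adjusted p = 0.12). Ccdc88b had no row. Of 21 tested genes of the girdin family and its partners, 1 rose and Ccdc88a was the 1 that fell. This was 9.52%, against 12.4% of all rows called, with a median of 0.05. The gene that rose was Gnai1, for a G protein alpha subunit, at 11.5 and 12.3 FPKM with lnc-31 siRNA and 8.25 and 8.39 with scrambled siRNA (log2 fold change 0.47, adjusted p = 0.011). That call was lost without either scrambled library or lnc-31 siRNA 2.

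Nbeal1 (chromosome 1, 60178740 to 60338328, plus strand) encodes a member of the BEACH domain family, large scaffold proteins that act in membrane traffic. Its 24 peaks began 78.8 kb from the 5′ end, past 49.4% of the body. Of the first 18 peaks, 17 were 200 bases wide, and a gap of 20.6 kb followed them. The remaining 6 peaks lay in the last 6.83 kb and were 400 to 1400 bases wide, with 55.6% of the covered bases. All but 1 of the 24 had a column 7 value at or below 0.001. Nbeal1 RNA was at 3.35 and 3.11 FPKM with lnc-31 siRNA and at 3.69 and 3.93 FPKM with scrambled siRNA. The groups did not overlap, and the log2 fold change of -0.19 did not pass (SE 0.077, limma adjusted p = 0.17). The log2(FPKM + 1) scale understates changes at this level. Limma called none of 8 tested BEACH family genes, against 12.4% of all rows. None had an unadjusted p under 0.05, against 30.9% of all rows. Nbea, Nbeal2 and Lrba had log2 fold changes of -0.01, -0.02 and -0.03 (adjusted p = 0.98, 0.90 and 0.88). Their means were low as well, at 1.23, 2.02 and 3.35 FPKM with lnc-31 siRNA and 1.24, 2.07 and 3.42 with scrambled siRNA. Most of the 8 family genes were below the median level of the tested rows, 14.2 FPKM, so all rows are not a background matched in level.

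Spata7 (chromosome 12, 98628129 to 98669819, plus strand) encodes a protein of the connecting cilium of photoreceptors. Its 8 peaks were scattered over the body from 0.172 kb after the 5′ end to 0.118 kb before the 3′ end, and 6 were 200 bases wide. The lowest column 7 value, 2.08e-06, belonged to a peak of 400 bases 30.3 kb from the 5′ end. Spata7 RNA was at 4.85 and 4.27 FPKM with lnc-31 siRNA and at 3.68 and 4.48 FPKM with scrambled siRNA. The groups overlapped, and the log2 fold change of 0.13 had a 95% interval of -0.13 to 0.39 (limma, adjusted p = 0.44). Limma called none of 24 tested genes of the ciliary transition zone, against 12.4% of all rows. Of these 24, 3 had an unadjusted p under 0.05, against 30.9% of all rows. Under quantile normalization, median of ratios scaling or a filter at a mean of 5 FPKM, limma called 1. Most of the 24 genes were below the median level of the tested rows, 14.2 FPKM. The log2(FPKM + 1) scale understates changes at low levels, so all rows are not a background matched in level. The part of level in the low number of calls was not tested. Cep290 and Cc2d2a, both parts of that zone, carried 2 peaks each from the lnc-31 probes and none from lacZ, with log2 fold changes of -0.07 and -0.04 (adjusted p = 0.52 and 0.80).

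**Figure D4:**
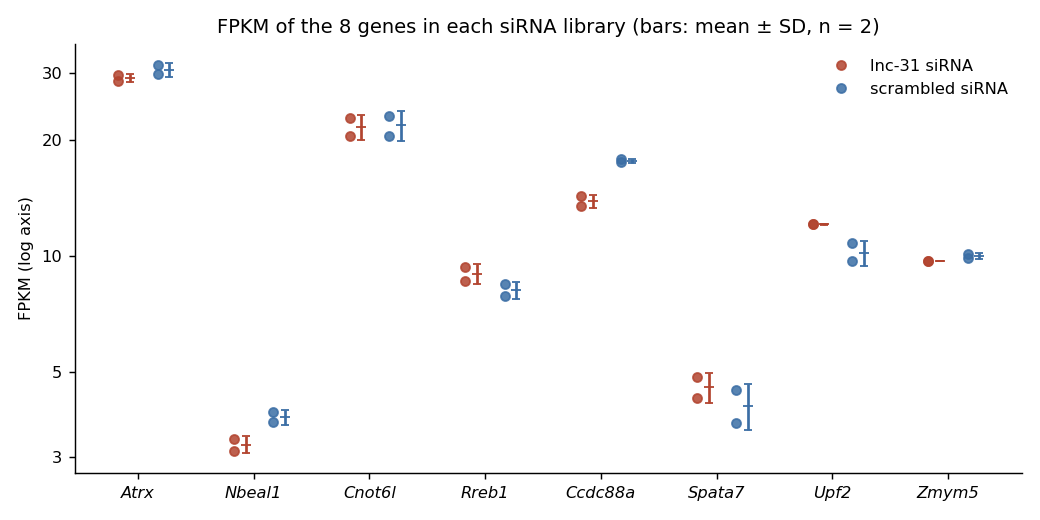
FPKM (log axis) of the 8 genes in each library, with lnc-31 siRNA in red to the left of scrambled siRNA in blue. Points are libraries and bars the mean ± SD of 2. Ccdc88a shows the widest separation, at 13.5 and 14.3 against 17.6 and 17.9 FPKM.

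Side by side, the 8 genes were low to moderate in level. On the FPKM scale, which allows for length, Atrx was highest, at 29.1 ± 0.669 FPKM with lnc-31 siRNA and 30.5 ± 1.22 with scrambled siRNA (SD, n = 2 each). Cnot6l was next, at 21.7 ± 1.63 FPKM with lnc-31 siRNA and 21.9 ± 1.95 with scrambled siRNA. Ccdc88a followed at 13.9 ± 0.540 FPKM with lnc-31 siRNA and 17.7 ± 0.203 with scrambled siRNA, and Upf2 at 12.1 ± 0.0251 with lnc-31 siRNA and 10.2 ± 0.759 with scrambled siRNA. Zmym5, Rreb1, Spata7 and Nbeal1 came below in this order. The ranges of neighbours over the 4 libraries overlapped for Upf2 and Zmym5 and for Spata7 and Nbeal1. The median level of the 8 genes was 10.5 FPKM, against 14.2 over the tested rows.

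All 8 were tested, 5 had negative and 3 positive log2 fold changes, and the median was -0.02, against -0.0067 over all rows. The median size of the difference was 0.13, against 0.10 over all rows. Limma called 1 lower (Ccdc88a) and none higher, where 6.78% of all rows were called lower and 5.64% higher, and 2 of the 8 had an unadjusted p under 0.05, against 30.9% of all rows. The groups did not overlap in 6 of the 8, against 60.2% of all rows.

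**Figure D5:**
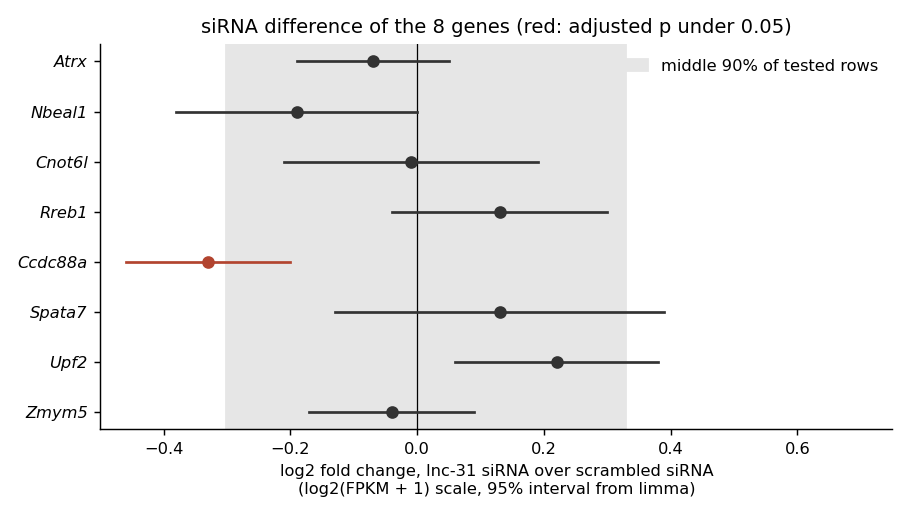
Log2 fold change of the 8 genes, lnc-31 siRNA over scrambled siRNA, on the log2(FPKM + 1) scale, with 95% intervals from limma. The grey band holds the middle 90% of the 11500 tested rows (-0.30 to 0.33). Ccdc88a, in red, lies at -0.33, and the other 7 points lie inside the band.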

How the data were processed

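RNA was measured by sequencing in C2C12 cells. The authors deposited FPKM values for 4 siRNA libraries, made from a stranded mRNA kit per the labels' protocols and with Trimmomatic, TopHat2 and Cuffdiff among the tools and mm10 as the build according to the submitters' processing notes, without role, order or version. For the pull-down the authors deposited 1 peak list per probe set, with no score and 1 strand symbol. Column 7 of the deposited lists was read as a p-value from its range alone (above 0, up to 0.01). For the program that called peaks, nothing is given in the sources used here. There were 0 sample columns without a label.

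Peaks were assigned to RefSeq gene bodies (GRCm38.p6) by an overlap of 1 base, with strand from the RefSeq promoter table. Rows averaging at least 1 FPKM were compared as log2(FPKM + 1) with limma 3.58.1 (R 4.3.3), with a trended prior variance, two-sided, and Benjamini-Hochberg adjustment over 11500 rows, called under 0.05. Fold changes are on that scale. Whole reads could not be recovered from the FPKM values, so depth is unknown. Members and the 8 gene lists were chosen with earlier results of these data known. Genes were named as members, as neighbours of the rule, as family relatives, or as up to 4 called genes per list by smallest p, and some that this rule picks are not reported here. Pml, Rras, Cep290 and Cc2d2a fall outside it and were named after their values were seen. On simulated data for the same comparison (11500 genes), the fit recovered 86.0% of 1.5-fold and 100% of 2-fold changes, with 4.93% false calls. Changes were planted only in rows that were not low, and none was smaller than 1.5-fold, a size that no member reached. The simulated noise was independent between libraries, with a variance smoothed over rows of similar level. It therefore lacks the variance of single genes and effects shared within a library, and these figures do not carry over to the calls above.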

Additional observations from a re-analysis of the deposited data

How the results depend on the processing

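The call of Ccdc88a held in 7 of 7 settings of pseudocount, filter, scaling and prior variance and with the replicate number as a block, at adjusted p between 0.012 and 0.034, and was lost with any 1 library left out. The fall did not reach 1.5-fold, so a 1.5-fold threshold left 0 of the 8 genes, 1 of the list genes (Rqcd1) and 169 of all rows. Median of ratios scaling called 2 of the 8, adding Upf2, but it also called more of all rows, 1933 against 1429 in the main fit. Quantile normalization called 1928 of all rows. The 12.4% set beside the lists is that of the main fit. With 1 library left out, limma called 0 of the 8 in each case, with 1 or 2 at an unadjusted p under 0.05, and called 260 to 491 of all rows, against 1429, and 5 to 7 of the list genes, against 26. Where 1 library is left out, the lone library of its group is assumed to vary like the others. The log2 fold change of Cnot6l then ran from -0.10 to 0.08, changing sign. With the replicate block limma called 1613 rows and 1 of the 8 and no longer called Pml and Rras (adjusted p = 0.0503 and 0.0518), and the deviations of equally numbered libraries had a correlation of -0.094, so the numbers are not shown to pair libraries. The 110 peaks in the 8 genes remained 110 when at least 50% of a peak had to lie in the body or when bodies were widened by 1 kb, and none of the lacZ peaks fell in them. Peaks with a column 7 value at or below 0.001 numbered 81, with 1 left in Ccdc88a, 3 in Upf2 and 6 in Cnot6l. Peaks within 1 kb of each other counted as 1 gave 75, with 15 in Nbeal1, 8 in Cnot6l and 4 each in Rreb1 and Zmym5. The peaks rest on 1 library per probe set.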
